A study of Rattus norvegicus with 2 samples.

Results

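Growth factors and their receptors were followed as a group of 60 genes, out of 4736 named genes on the array. They were chosen by name. The group holds every gene of a single platform symbol that begins Fgf, Igf, Tgfa, Tgfb, Bmp, Vegf, Pdgf, Egf, Erbb, Gdnf or Gfra, or Nrg with a digit after it, together with Insr, Kit, Kitlg, Ghr and Met. Igf2, Igfbp2 and Pdgfra were left out. A rule on names also takes in 5 genes that are only called after a factor or a receptor, namely Fgfr1op2, the pseudogene Fgfr1-ps1, Bmp2k, Tgfbrap1 and Egfl7. By role, 30 of the 60 genes were counted as ligands, 19 as receptors or co-receptors and 6 as secreted or serum proteins that bind a ligand. The 30 include Fgf14, which belongs to a ligand family but is not a secreted ligand.

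The samples were RNA of synaptosomes, the sealed nerve endings and attached postsynaptic membranes that a biochemical fractionation yields, and RNA of the whole hippocampus. Both came from Sprague Dawley rats at postnatal day 70, and the labels name no treatment, genotype or number of animals. Each sample was hybridised to 1 Affymetrix expression array after oligo(dT)-primed amplification, and the study set the fraction against the tissue to find mRNAs enriched at the synapse. With 1 array per group there is no replicate error and no test, so every value is a single measurement and every fold a description.

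Growth factors are secreted or membrane-bound proteins that act on neighbouring cells. Most of the receptors here are tyrosine kinases: ligand binding pairs them, they phosphorylate each other and adaptor proteins, and the Ras to MAP kinase and PI3 kinase to Akt cascades follow. Transforming growth factors β and bone morphogenetic proteins signal instead through serine/threonine kinase receptors and SMAD transcription factors, and the growth hormone receptor signals through an associated JAK kinase. In the adult hippocampus the ligands come from neurons, glia and vessels, and the neuronal receptors act on survival, neurogenesis in the dentate gyrus and synaptic transmission.

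Most members gave little signal. The 60 genes were represented by 107 probe sets, groups of short probes that each measure 1 transcript. Signals under 846, the median of all non-control values of both arrays, were set to 846, and this level is called the floor. Of the 107 probe sets, 57 lay at the floor on both arrays, which is 53.3% against 38.5% of all 7006 named probe sets. A further 24 lay above it on both arrays, 17 on the hippocampus array only and 9 on the synaptosome array only. The array's own negative readings give a scale for noise: 95% of them were smaller in size than 2912.6 for synaptosomes and 5280.25 for the hippocampus, and readings under these sizes are called within the noise range below. Only 6 member probe sets exceeded that size on either array, 5.61% against 25.0% of all named probe sets, and 0 did so on both. They belonged to Kitlg, Ghr and Tgfb3 in the hippocampus and to Fgfr1, Igfals and Igf1r in synaptosomes. For every other member both readings were within the noise range.

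A gene was compared if the mean log2 level of a probe set reached the median of all probe sets, a signal of 1078, and its brightest such probe set was used. Of the 60 members 28 passed, or 46.7% against 57.7% of all named genes, and 32 did not. Ratios are synaptosome over hippocampus on the log2 scale, shifted so that the median of all filtered probe sets is 0, which multiplies folds of higher genes by 1.13 and divides those of lower genes by it. Where 1 array was at the floor the fold is a bound and is written "at least"; since that reading lies within the noise, the bound is not a guaranteed minimum. In synaptosomes 2 members, Fgfr1 and Fgf5, were at least 2-fold higher and 6, Ghr, Kitlg, Tgfb3, Fgfr1op2, Vegfa and Fgfr4, at least 2-fold lower, and 20 lay between. These are 7.14% higher and 21.4% lower, against 19.1% and 14.3% of the 2735 filtered genes. Without the centring 2 members were higher and 10 lower, 7.14% and 35.7%, and over all filtered genes 14.7% were higher and 19.5% lower.

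The median log2 ratio of the 28 members was -0.60, against 0.00 over all filtered genes, with 12 members above 0 and 16 below. This median leaned on members that were read on 1 array only. Of the 28, 7 were above the floor in the hippocampus alone and 2 in synaptosomes alone, and such a gene passes only because it differs. Among the 19 read above the floor on both arrays the median was 0.03, against 0.04 over the 2175 such genes of the whole array. Of these 19 members 1 was higher and 3 lower, and of the 2175 genes 309 were higher and 229 lower. In whole tissue fewer cells of a type and less RNA per cell cannot be told apart, and between a fraction and its tissue the same holds for fewer fragments of a cell type and less mRNA in each.

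**Figure D1:**
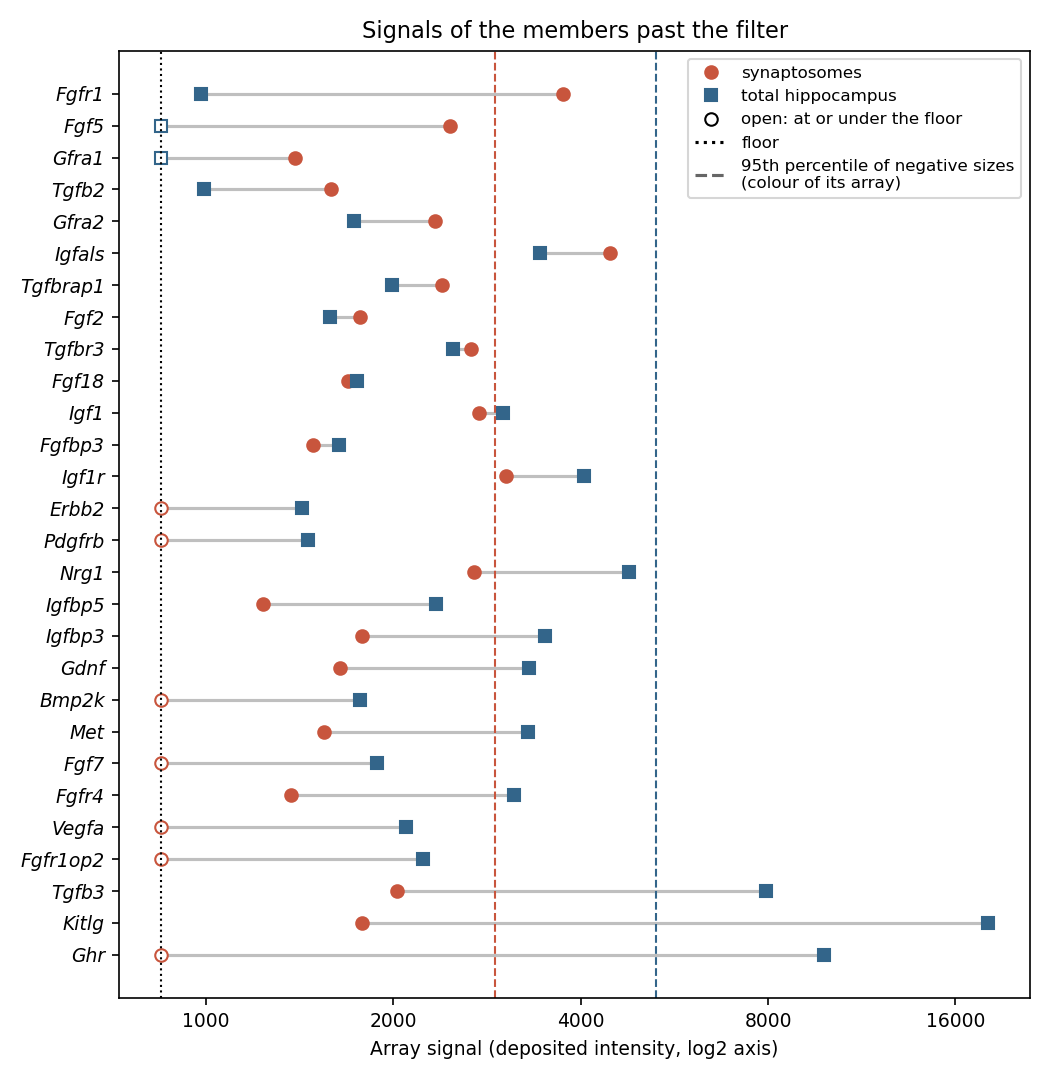
Signals of the 28 members past the filter in synaptosomes (circles) and in the hippocampus (squares), on a log2 axis; open symbols stand for readings under the floor of 846 (dotted line), and dashed lines mark 2912.6 and 5280.25, the size that 95% of negative readings stay under on each array. Kitlg, Ghr and Tgfb3 in the hippocampus and Fgfr1, Igfals and Igf1r in synaptosomes are the only readings beyond the line of their array.

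The widest differences were in a membrane ligand and a hormone receptor. Kitlg, stem cell factor, is made as a membrane protein that can be shed, and it binds the receptor tyrosine kinase Kit. Its probe set AF071204_at read 1779 in synaptosomes and 18078 in the hippocampus, 9.03-fold lower. The second probe set named after the same source sequence, AF071204_g_at, read 840 and 1341. Both readings ran the same way, but the second differed by a bound of only 0.49 on the log2 scale, so the size of the Kitlg difference rests on 1 probe set. Its receptor Kit was at the floor on both arrays, with readings of 325 and 376 for 1 probe set and -8 and -1124 for the other. Nothing can be said about a ratio for Kit.

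Ghr, the growth hormone receptor, lay near Kitlg. Probe set S49003_s_at read -103 in synaptosomes and 9828 in the hippocampus, at least 10.3-fold lower. The negative reading was raised to the floor, so the place of Ghr among the lowest genes is set by it: with a floor of 2798.5 the log2 ratio was -1.73, and that of Kitlg -2.61. The other Ghr probe sets read -678 and -406, and 5 and 400, so neither detected the transcript on either array. S49003_s_at was therefore the sole source of the Ghr difference. Met, the receptor of hepatocyte growth factor, read 1547 and 3294, a log2 ratio of -0.92. Its other probe sets read 152 and 1091, and 372 and 1088. All 3 Met probe sets gave the lower reading in synaptosomes; those of the latter sets are bounds, and the first was 2.13-fold lower without centring.

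Among the fibroblast growth factor receptors, Fgfr1 and Fgfr4 lay on opposite sides. Fgfr1, the main neuronal receptor of the family, read 3749 in synaptosomes and 980 in the hippocampus with probe set D12498_s_at, 4.30-fold higher and 88th from the top of 2735 genes. A second probe set, S54008_i_at, read 2809 and 727, at least 3.74-fold higher. The third, AF000144_at, went the other way with 760 and 1221. Only the synaptosome reading of 3749 was beyond the noise range, and against a floor of 2798.5 the log2 ratio of Fgfr1 was 0.51, so the hippocampus level that the fold is measured against is not well fixed.

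Fgfr4, best known from the liver, read 1369 in synaptosomes and 3124 in the hippocampus, 2.03-fold lower. Its second probe set, designed on the same sequence, read 378 and 1712, a bound of -0.85 on the log2 scale. Both sets were lower in synaptosomes, and all 4 readings were within the noise range; with the floor of 2798.5 the log2 ratio was -0.08. All 4 probe sets of Fgfr2, a receptor prominent in glia, were at the floor on both arrays, with readings from -1331 to 141 in synaptosomes and from -1791 to 634 in the hippocampus.

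Fibroblast growth factor ligands were mostly undetected. Fgf5, a ligand known for ending the growth phase of hair, read 2471 in synaptosomes and 324 in the hippocampus with D64085_at, at least 3.29-fold higher. The second set on that sequence read 179 and 697, with both values under the floor and in the opposite order. Fgf2, the basic factor that astrocytes make, read 1770 and 1580, a log2 ratio of 0.33, and its other set 51 and 337. Fgf18 read 1692 and 1750, a ratio of 0.12, and the carrier Fgfbp3 read 1488 and 1637, a ratio of 0.03. Fgf2, Fgf18 and Fgfbp3 thus gave nearly equal readings in fraction and tissue. Fgf7, the keratinocyte growth factor, read 518 and 1881, a bound of -0.98.

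The other 6 genes counted as ligands of the family did not pass. Fgf9, a neuronal and glial mitogen, read 717 and 1014. Fgf1, Fgf10, Fgf14, Fgf16 and Fgf17 were at the floor on both arrays; Fgf14, an intracellular partner of voltage-gated sodium channels rather than a secreted ligand, read -692 and 539. Fgfr1-ps1 was at the floor on both arrays. Fgfr1op2, a cytoskeletal protein named after a fusion with FGFR1, read 627 and 2229, at least 2.34-fold lower.

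Insulin-like growth factor genes stayed within 2-fold. Igf1, a growth and survival factor of neurons, read 2741 in synaptosomes and 3001 in the hippocampus with 1 probe set, a log2 ratio of 0.04. Its 4 other probe sets were under the floor on both arrays, with hippocampus readings from -14247 to 743. Igf1r, the receptor of IGF-I, read 3032 and 4046, a ratio of -0.25, and its second probe set read 1121 and 1852, a ratio of -0.55. Both Igf1r probe sets were above the floor on both arrays and differed by less than the 0.90 that is the standard deviation (SD) between probe sets of one gene, taken over the 658 genes with several filtered sets. The insulin receptor Insr read 556 and -98 and Igf2r, which clears IGF-II and carries lysosomal enzymes, -485 and -1947, so neither receptor was detected.

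The proteins that carry insulin-like growth factors were divided. Igfbp3 read 1783 and 3507, a log2 ratio of -0.81, and Igfbp5 1235 and 2340, a ratio of -0.75. Igfals, the acid-labile subunit of the serum complex, was the exception with 4456 in synaptosomes and 3435 in the hippocampus, a ratio of 0.55. Its other sets read 1968 and 1844, and 1201 and 573, so all 3 Igfals sets were higher in synaptosomes; the first 2 differed by less than the SD between probe sets, and the last is a bound of 0.68. A second set of Igfbp3 and 2 others of Igfbp5 were at the floor on both arrays, as were Igfbp1 and Igfbp6.

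The 3 transforming growth factors β, which share receptors, gave mixed readings. Tgfb3 read 2030 in synaptosomes and 7943 in the hippocampus with U03491_g_at, 3.48-fold lower. The companion set U03491_at read 1213 and 929, a log2 ratio of 0.56 in the other direction, and the Tgfb3 difference therefore rests on 1 of 2 sets designed on one sequence. Tgfb2 read 1588 and 991, a ratio of 0.85, in the direction of that companion set. This ratio was smaller than the SD of 0.90 between probe sets, and both Tgfb2 readings were within the noise range. Tgfb1 read 348 and 912 and did not pass. Tgfbr3, the co-receptor betaglycan that presents TGF-β to its signalling receptors, read 2664 and 2492, a ratio of 0.27, while its other set read 559 and 960. Tgfbr1, the signalling receptor itself, was under the floor with both sets, which read 289 and -846, and 642 and -87.

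Bone morphogenetic proteins were not detected as a family. Bmp3 gave the one reading above the floor on both arrays, 979 and 1114, and did not pass. Bmp2, Bmp4, Bmp6, Bmp7 and the receptor Bmpr1a were at the floor on both arrays. Bmp2k, a kinase induced by BMP2, read 768 and 1767, a bound of -0.89, and Tgfbrap1, a vesicle-tethering protein that also binds TGF-β receptors, read 2398 and 1987, a ratio of 0.44.

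Neuregulin 1, a ligand of the ErbB receptors with many splice forms, was covered by 7 probe sets. U02322_s_at read 2699 in synaptosomes and 4784 in the hippocampus, a log2 ratio of -0.66. M92430_at read 966 and 391. The other 5 sets were at the floor on both arrays, with hippocampus readings from -2969 to 842. The sets are named after different source sequences, so they may not measure the same splice forms; which forms each detects is not given in the sources used here. Erbb2, the co-receptor that binds no ligand itself, read -252 and 1425, a bound of -0.58. Erbb3 read 1032 and -573 with 1 set and 728 and 176 with the other and did not pass. Erbb4, the main neuregulin receptor of inhibitory neurons, and Egfr were at the floor on both arrays, as were the ligands Nrg2 and Tgfa. Egf read 908 and 943 with its brighter set, equal within 0.12 on the log2 scale, and did not pass. Egfl7, a protein of endothelial cells, had readings from -15083 to -2663 in synaptosomes and down to -33701 in the hippocampus.

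Vascular and platelet-derived factors were seldom above the floor. Vegfa, the main angiogenic factor, read -93 in synaptosomes and 2099 in the hippocampus with its brightest set, at least 2.20-fold lower. Another Vegfa set read 585 and 918, and the remaining 2 were negative on both arrays. Vegfd read 1134 and 551 and Pdgfa, a mitogen of oligodendrocyte precursors that neurons make, 1326 and 588 and, with its second set, 864 and -1321; both were read above the floor in synaptosomes only, and neither passed. Pdgfrb, the receptor of pericytes, read -140 and 1458, a bound of -0.62. Vegfb and Pdgfb were at the floor on both arrays.

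The glial cell line-derived neurotrophic factor family was the only one with all its members past the filter, and its ligand and co-receptors lay on different sides of 0. Gdnf read 1640 in synaptosomes and 3310 in the hippocampus, a log2 ratio of -0.84. Gfra1, the lipid-anchored co-receptor that binds it, read 1390 and 801, a bound of 0.89, and Gfra2, the co-receptor of the related factor neurturin, 2336 and 1729, a ratio of 0.60. The measured ratios of Gdnf and Gfra2 were smaller than the SD of 0.90 between probe sets, and Gdnf was 2.02-fold lower without centring. The second set of Gfra1 was at the floor on both arrays and that of Gfra2 read 271 and 1047.

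**Figure D2:**
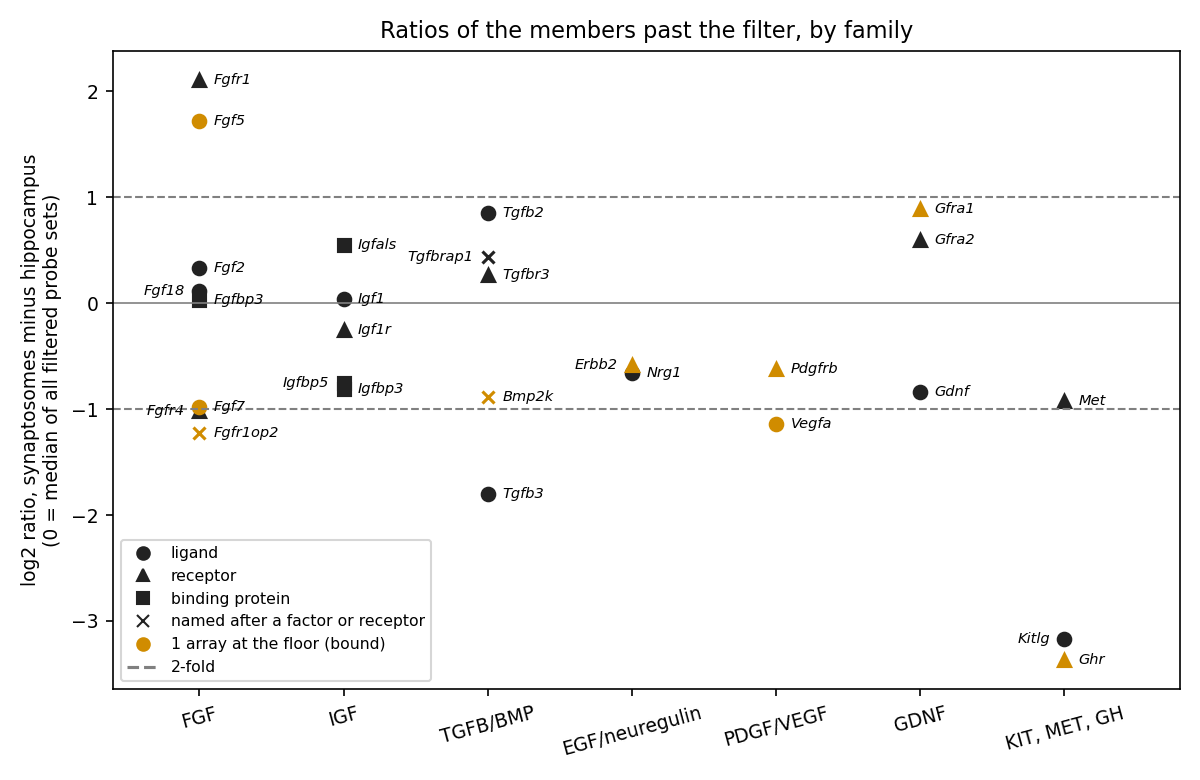
Log2 ratio of synaptosomes over hippocampus for each of the 28 members past the filter, by family, with 0 at the median of all filtered probe sets and dashed lines at 2-fold; marker shapes give the role, and orange marks a gene with 1 array at the floor, whose ratio is a bound. Fgfr1 at 2.11 and Fgf5 at 1.72 stand above the upper line, and Kitlg at -3.17 and Ghr at -3.37 lie lowest.

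By role, 11 of 30 ligands passed, with 1 higher (9.09%, against 19.1% of all filtered genes), 3 lower (27.3%, against 14.3%) and a median log2 ratio of -0.66. Of 19 receptors 10 passed, with 1 higher, 2 lower (20.0%) and a median of -0.41. Both medians include genes read on 1 array only; over the 8 ligands and 6 receptors above the floor on both arrays they were -0.31 and 0.01. The 4 binding proteins that passed were all within 2-fold. Ligands and receptors overlapped over nearly their whole range, from -3.17 to 1.72 and from -3.37 to 2.11.

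Separate probe sets of a member seldom bore each other out. Of the 28 members past the filter 18 had further probe sets, but in 4 genes alone, Fgfr1, Fgfr4, Igf1r and Igfals, did a second one pass. In those 4 genes the passing sets had the same sign. A set under the filter lies too near the floor to reach 2-fold. Only these 4 genes could therefore have shown sets past 2-fold in opposite directions, and none did. Some sets under the filter had a reading above the floor. Their sign was opposite to that of the set used in Fgfr1, Tgfb3, Nrg1, Gfra2 and Tgfbr3. For Tgfbr3 the log2 ratio was a bound of only -0.01. For Vegfa it was a bound of 0.05, made positive by the centring alone. The Vegfa readings themselves, 585 and 918, were lower in synaptosomes, as in the set used. The sign was the same in Kitlg, Met and Igfals. The 33 sets of these 18 genes that were not used read from -13515 to 2809 in synaptosomes and from -14247 to 1852 in the hippocampus.

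**Figure D3:**
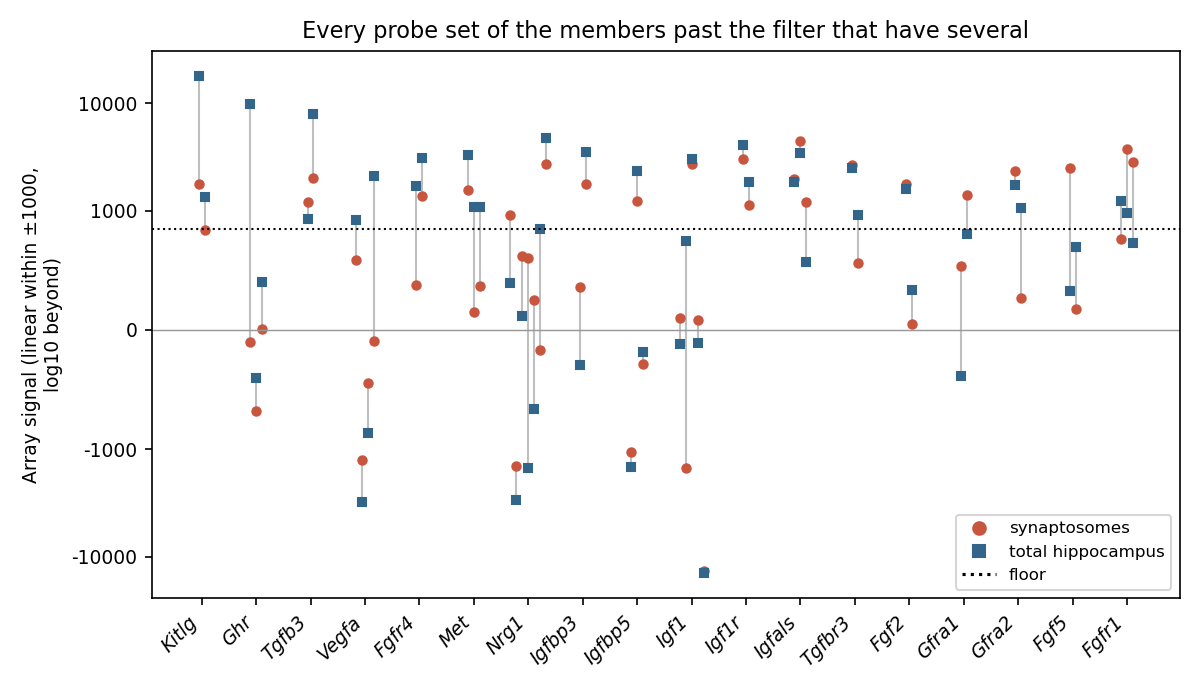
Signals of every probe set of the 18 filtered members that have several, on a scale that is linear near 0 and logarithmic beyond; each grey line joins the synaptosome reading (circle) and the hippocampus reading (square) of 1 probe set, and the dotted line is the floor of 846. Kitlg, Ghr and Tgfb3 each have 1 probe set with a far brighter hippocampus reading, 18078, 9828 and 7943, beside sets near or under the floor.

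Lists of pathway partners, from which members were removed, are given for comparison by counts alone. Of 34 genes downstream of receptor tyrosine kinases 18 passed, with 7 higher, or 38.9%, 1 lower, or 5.56%, and a median log2 ratio of 0.64, against 19.1% higher and 14.3% lower of all filtered genes. Of the 7 higher genes 6 were under the hippocampus floor and passed through the synaptosome reading alone. Over the 12 genes that exceeded the floor in both samples the median was 0.17, with 1 higher and 1 lower. Of all 2175 such genes 309 were higher and 229 lower. The highest were the GTPase Nras, at least 7.39-fold, the kinase Akt1, 5.81-fold with readings of 13524 and 2618, and the insulin receptor substrate Irs2, at least 5.36-fold. Grb14, an adaptor that inhibits the insulin receptor, was the lower gene at 2.43-fold.

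Other ligands and receptors of growth factors and neurotrophins were past 2-fold about as often as all filtered genes. Of 31 on the array 20 passed, with 4 higher (20.0%, against 19.1%), 3 lower (14.3% over all) and a median of 0.02. Ddr1, a collagen receptor, was 5.25-fold higher, Ntrk2, the receptor of BDNF, 4.57-fold and Ret, the signalling partner of the Gfra co-receptors, at least 3.62-fold with readings of 2723 and -1. Ret, like Gfra1, was under the hippocampus floor and passed through the synaptosome reading alone, so it could only be read higher. The readings of Ret, Gfra1 and Gfra2 were all within the noise range. Kdr, the main VEGF receptor of endothelium, was at least 4.09-fold lower, Ngfr, the neurotrophin receptor p75, 3.16-fold and Flt1, another VEGF receptor, 2.31-fold. Vegfa, Kdr and Flt1 were read lower in synaptosomes, but Vegfa and Kdr passed through the hippocampus reading alone. The readings of Vegfa and Kdr were within the noise range. A second Vegfa set read 585 and 918, a bound of 0.05 that the centring alone made positive. Vegfd ran the other way from these genes with 1134 and 551.

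Of 33 activin and SMAD partners 14 passed, with 3 higher (21.4%), 2 lower (14.3%) and a median of 0.17, shares close to the 19.1% and 14.3% of all filtered genes. Acvr2b, an activin receptor, was at least 5.68-fold higher with readings of 4269 and -4326, and the signal transducer Smad2 at least 2.40-fold. Acvrl1, an endothelial receptor, was 2.74-fold lower with readings of 880 and 2714. These readings and those of Smad2, 1803 and 760, were within the noise range. Among the 9 partners above the floor on both arrays 0 were higher and 1 lower, and of all 2175 such genes 309 were higher and 229 lower.

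**Figure D4:**
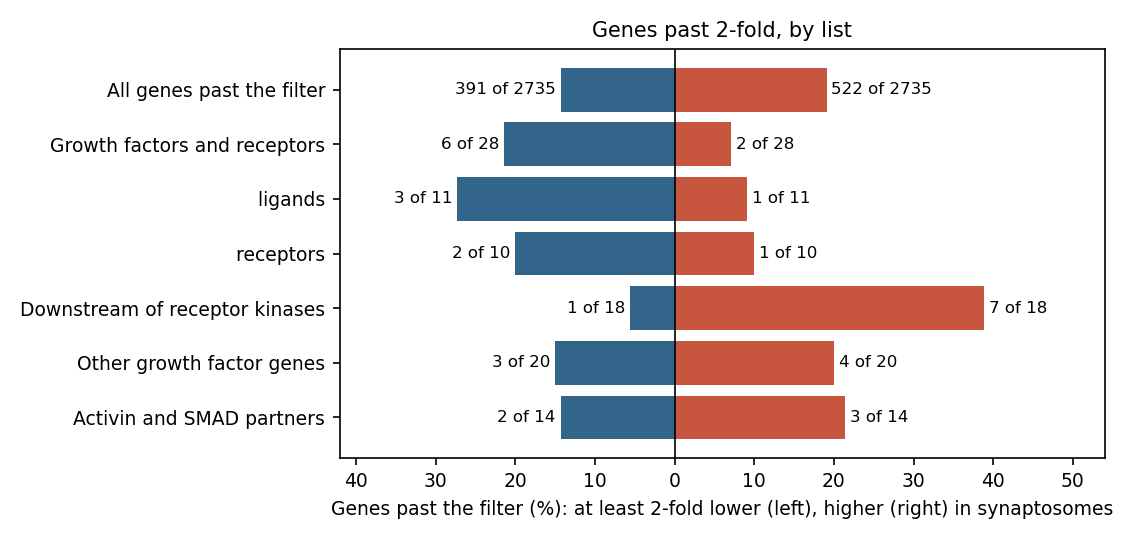
Percentage of filtered genes at least 2-fold lower (left, blue) or higher (right, red) in synaptosomes for all genes, the growth factors and receptors, their ligands and receptors, and the 3 partner lists, with the number of genes beside each bar. Among growth factors and receptors 21.4% were lower and 7.14% higher, and among genes downstream of receptor kinases 5.56% and 38.9%, with 6 of the 7 higher genes there being bounds. All 3 higher activin and SMAD partners were bounds too.

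Markers of the cell types in the tissue were read on both arrays. The summed signal of all filtered genes was 0.811 times as large in synaptosomes as in the hippocampus. Of 10 neuronal markers 9 passed, with 1 higher and 1 lower, 7 above 0 and a median log2 ratio of 0.69. Their summed signals were 142186 in synaptosomes and 184883 in the hippocampus, and 109404 and 75797 without Snap25; Slc17a7 was at the floor on both arrays. All 8 astrocyte markers passed, with 1 higher and 1 lower, a median of 0.04 and sums of 210254 and 219962, or 145929 and 118274 without Aldoc. Of 7 oligodendrocyte markers, all past the filter, Cnp was higher and Mbp, Mobp and Mog lower, with a median of -0.19 and sums of 34293 and 54000, or 30812 and 40090 without Mobp. Of 14 vascular, meningeal and choroid markers 11 passed, with 1 higher and 2 lower, a median of -0.13 and sums of 49283 and 82087, or 42472 and 46961 without the globin Hbb; Col3a1, Vwf and Tagln were at the floor on both arrays. Of 7 microglial markers 2 passed, Aif1 and Ptprc, with sums of 10555 and 7059. Without Aif1 they were 846, which is the floor, and 1521, from Ptprc alone. Itgam and Csf1r were at the floor on both arrays. Of 3 markers of oligodendrocyte precursors Pdgfra alone passed, and it was at least 5.95-fold higher with readings of 4472 and 705. It was under the hippocampus floor and passed through the synaptosome reading alone, so it could only be read higher. The median log2 ratio of the precursor markers was 2.57. With a floor of 2798.5 it was 0.76, and without the filter 0.37. The part of these cell types in the members' readings was not tested.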

How the data were processed

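The authors' deposited table holds linear intensities of 8799 probe sets on 2 arrays, of which 59 are controls. How the scans were read, background-corrected and scaled is not given in the sources used here. Per the labels' protocols, column-purified total RNA was amplified as cDNA from an oligo(dT) primer with a T7 promoter and transcribed into biotin-labelled cRNA. The mean without the lowest and highest 2% was 2486 and 2480, so the deposited intensities were taken as already scaled. At or below 0 lay 25.2% of synaptosome and 31.4% of hippocampus values.

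Values under percentile 50 of both arrays' non-control values together (846) were raised to it, turned into log2 and centred on the median ratio of filtered probe sets (-0.17). The filter was percentile 50 of the mean level. Of 8740 non-control probe sets, 7006 had 1 gene symbol in the platform annotation, 308 several and 1426 are unnamed here. All 60 members matched the RefSeq table of assembly GRCr8 by gene identifier, with 0 renamed. Precision is limited by the number of arrays, which is 1 in each group. Every filtered member is named, and from each partner list at most the 3 farthest genes each way past 2-fold. The members and lists were chosen with earlier results of these data known. Alternatives changed floor, centring, filter, normalization and the choice of probe set. Python 3.11.15, NumPy 2.4.6, pandas 2.3.3, statsmodels 0.14.6 and matplotlib 3.10.9 were used, and the calculation was tested on simulated data.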

Additional observations from a re-analysis of the deposited data

How the results depend on the processing

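The counts of members at least 2-fold higher and lower, 2 and 6, and their median log2 ratio of -0.60 moved with the processing. With a floor at percentile 75 they were 0 and 3 with a median of -0.20, over 12 members. Of all genes compared there 10.1% were higher and 7.91% lower. A stricter filter, percentile 75 of mean level, gave 0 and 3, over 7, against 14.4% and 11.5% of all genes. When both readings had to exceed the floor and ratios were centred again, the counts were 1 and 3, with a median of 0.00. That was over 19 members, against 13.5% and 11.4% of all such genes. Without probe sets that carry a letter before the _at suffix the counts were 1 and 3, over 18 members. Of all genes 19.9% were then higher and 14.3% lower. The sums and role or partner medians that leave out a gene or genes at the floor were added after seeing the data. Among the 6 members beyond the noise range, an alternative chosen after seeing the data, the counts were 1 and 3, with a median of -1.28. Of all genes beyond that range 18.0% were higher and 14.2% lower. Each of the 6 members entered through its reading on 1 array only. The cut-offs were unlike, 2912.6 for synaptosomes and 5280.25 for the hippocampus, so the selection itself shapes these counts and this median. Without centring 10 members were lower. The median was -0.06 without the filter, where 35 members were compared, and -0.38 after quantile normalization. Fewer members enter under a higher floor or filter. With the floor at percentile 75 Fgfr1 and Fgfr4 still passed but were no longer past 2-fold. Their log2 ratios went from 2.11 to 0.51 and from -1.02 to -0.08. What else moved the counts was not tested. Loess correction, the mean over probe sets, and leaving out genes only named after a factor kept both counts within 1.5 times. That mean was taken over passing probe sets alone, so it could change only Fgfr1, Fgfr4, Igf1r and Igfals. The other sets of Kitlg, Ghr and Tgfb3 did not enter it, so it does not test the choice of probe set for these genes. Kitlg ranged from -3.43 to -2.61, Ghr from -3.63 to -1.73, Tgfb3 from -2.06 to -1.42 and Fgfr1 from 0.51 to 2.11 over the settings in which each passed. Fgfr4 ranged from -1.19 to -0.08 and was past 2-fold in 6 of 9 settings. No called member changed sign. No paired analysis was possible because each group has 1 array. Most ratios here are limited by signal over background.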
